A study of Mus musculus with 36 samples.

Results

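The 47 genes described here encode the machinery of cell division: mitotic kinases, cyclins and their destruction factors, kinetochore proteins, the chromosomal passenger complex, spindle proteins and motors, cytokinesis proteins and condensins. They were taken by name from a list of mitosis and spindle genes, which was chosen with earlier results of these data known. All 47 were measured, out of 18193 genes with a probe set of their own. Where a gene had several probe sets naming it alone, the one with the highest average signal was used. These genes are transcribed mainly in the late S, G2 and M phases of the cell cycle, so in a sorted population their RNA level can follow the share of cells about to divide. That share was not measured here. Adult haematopoietic stem cells are mostly at rest, but whether the stem cells here, labelled 1 week old, were at rest was not measured. Early lymphoid and thymic progenitors alternate between rounds of division and pauses in which antigen receptor genes are rearranged. In bulk RNA, fewer cells in mitosis and less of these RNAs per cell cannot be told apart.

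Expression was measured on 36 one-colour arrays of 8 sorted C57BL6 mouse populations, of both sexes and, by label, 1 week old. From the bone marrow came stem cells (HSC, sorted as LSKFlt3-CD48-CD150+, 6 arrays) and thymic seeding progenitors (LSK, sorted as LSKFlt3hi IL7R+, 6 arrays); the tissue of the common lymphoid progenitors (CLP, 4 arrays, labelled as putative thymus seeding progenitors) and of the B-cell progenitors (pro-B, 3 arrays) is not labelled. The thymic populations were early thymic progenitors (ETP, sorted as ETPFlt3hi, 6 arrays), DN2 cells sorted as DN2Kit+ (3 arrays), DN3 cells (6 arrays) and adult ETP (2 arrays, whose age label also reads 1 week). The arrays fall into 2 deposit sets with different array medians: set 1 has 15 arrays of 5 populations (3 each of HSC, LSK, ETP, DN2 and DN3), each a pool of several mice, and set 2 has 21 arrays of 7 populations (3 each of HSC, LSK, ETP, DN3 and pro-B, 4 of CLP and 2 of adult ETP), with nothing said of pooling. Levels are log2 RMA values and are set against each other only within a deposit set. Differences are log2 differences ± standard error from a limma fit over all 36 arrays, with p-values adjusted by the Benjamini-Hochberg method over 18193 genes. A gene was called when the adjusted p was under 0.05 and the difference was at least 1, which is 2-fold. Where both sets hold both populations the difference is the mean of the 2 within-set differences. The p-values measure the spread between these samples.

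The defining markers of HSC, of the T lineage populations and of pro-B cells were highest where the labels place them. The mean of the stem cell markers was 9.24 to 9.56 on the HSC arrays of set 1 and at most 5.84 on the others, and in set 2 it was 9.54 to 9.63 on HSC and at most 6.76, on a CLP array. The T lineage mean was 10.12 to 12.03 on DN2 and DN3 arrays of set 1 and at most 5.53 on its others; in set 2 it was 11.13 to 11.37 on DN3 and at most 5.96 elsewhere, so the ETP arrays were still low in these genes. The B lineage mean in set 2 was 11.25 to 11.41 on pro-B arrays, 8.95 to 9.25 on LSK, 7.35 to 8.62 on CLP and at most 6.29 on the others. HSC replicate 5 went against its gate: Cd48, whose product these cells were sorted to lack, read 7.47 on it and 4.88 and 5.23 on the other HSC arrays of set 2. Stroma and endothelium markers were also higher on HSC than on LSK arrays of set 2, at a mean of 6.01 to 7.43 against 5.71 to 5.84. Their mean was 6.08 to 6.38 on DN3 and 5.49 to 6.27 on CLP arrays, which overlapped HSC. Late granulocyte markers, genes of maturing neutrophils that none of these populations should hold, were uneven. Their mean reached 7.07 on 1 LSK array of set 1, 7.45 on HSC replicate 5 in set 2, 8.31 and 7.07 on 2 of the 4 CLP arrays and 6.53 to 7.57 on the pro-B arrays, against at most 4.10 (set 1) and 5.22 (set 2) on thymic arrays.

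Promoters of many mitotic genes carry CCAAT boxes, the letters bound by the factor NF-Y, and a cell cycle element near the start site that is read by the DREAM and MuvB complexes, which silence these genes in resting cells and activate them before mitosis. Promoter windows of RefSeq build GRCm38.p6, from 250 bases before to 50 after the start, were available for 39 of the 47 genes. On either strand the letters CCAAT were found in 30 of them (76.9%), against 37.9% of all 27025 windows of that table. The letters TTTGAA, the usual form of the cell cycle element, were found in 31 (79.5%), against 18.1% of all windows. The related letters TTTAAA, which also occur in TATA boxes, were found in 9 (23.1%), against 13.2%. CCAAT together with TTTGAA or TTTAAA was found in 28 (71.8%), against 10.9%. TTTGAA lay near the start, with a median position of 3 bases after it and quartiles of -28.5 and 21.5, and CCAAT lay further upstream, with a median of -61.5 and quartiles of -113 and -25.25. Of these, 4 windows are shown, 5′ to 3′ on the strand of the gene, with CCAAT, or TTTGAA or TTTAAA, on either strand in capitals: that of Ube2c (chr2:164769679-164769978, plus strand), the gene that fell most in CLP; those of Ccnb2 (chr9:70421505-70421804, minus strand) and Aurka (chr2:172370521-172370820, minus strand), with CCAAT upstream and the cell cycle element near the start; and that of Nusap1 (chr2:119618048-119618347, plus strand), which moved with the others although none of these letters was found in its window.
Ube2c: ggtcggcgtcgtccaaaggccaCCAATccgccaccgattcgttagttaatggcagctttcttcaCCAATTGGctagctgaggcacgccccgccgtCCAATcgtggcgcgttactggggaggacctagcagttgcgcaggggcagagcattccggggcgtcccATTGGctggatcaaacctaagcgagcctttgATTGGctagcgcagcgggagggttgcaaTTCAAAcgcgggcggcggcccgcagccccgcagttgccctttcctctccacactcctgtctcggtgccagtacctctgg
Ccnb2: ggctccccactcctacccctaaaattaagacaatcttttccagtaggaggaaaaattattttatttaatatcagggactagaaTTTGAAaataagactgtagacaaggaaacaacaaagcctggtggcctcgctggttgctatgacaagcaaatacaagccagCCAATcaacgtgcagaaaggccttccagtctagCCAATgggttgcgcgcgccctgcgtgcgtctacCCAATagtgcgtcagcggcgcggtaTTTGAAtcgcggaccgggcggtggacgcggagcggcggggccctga
Aurka: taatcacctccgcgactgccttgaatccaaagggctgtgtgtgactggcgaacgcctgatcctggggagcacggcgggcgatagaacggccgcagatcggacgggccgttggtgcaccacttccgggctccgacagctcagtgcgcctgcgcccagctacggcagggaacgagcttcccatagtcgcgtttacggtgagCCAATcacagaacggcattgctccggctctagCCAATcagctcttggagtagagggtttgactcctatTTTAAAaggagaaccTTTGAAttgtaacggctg
Nusap1: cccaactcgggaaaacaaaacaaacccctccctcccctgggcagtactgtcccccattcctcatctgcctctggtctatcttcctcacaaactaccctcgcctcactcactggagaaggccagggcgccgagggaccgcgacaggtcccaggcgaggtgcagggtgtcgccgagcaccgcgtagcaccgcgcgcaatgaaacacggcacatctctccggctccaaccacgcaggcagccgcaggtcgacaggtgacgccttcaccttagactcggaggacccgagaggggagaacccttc
The match in capitals over 8 bases in Ube2c is CCAAT on both strands, overlapping. These matches are letters and not measured binding sites.

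The 47 genes varied widely and together. Their population means ranged over a median of 1.76 in set 1 and 1.93 in set 2 on the log2 scale, against 0.51 and 0.64 for all genes. After centring within each set, the median correlation over the 1081 pairs of members was 0.83 across the 36 arrays (lowest 0.10, highest 0.96), as a description of arrays that share populations. For 42 of the 47 the correlation with the mean of the other members was above 0.8. It was highest for Top2a, the topoisomerase that untangles chromosomes (0.97). It was lowest for Cenpa, the centromeric histone (0.44), Kif2c, a microtubule-depolymerising motor (0.71), Ckap2, a spindle protein (0.76), Melk, a kinase (0.79), and Smc4, a condensin subunit (0.80). Each value rests on the probe set used. From HSC to LSK another probe set of Cenpa gave 1.25, against 0.31 by the one used and 0.07 by the remaining one.

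**Figure D1:**
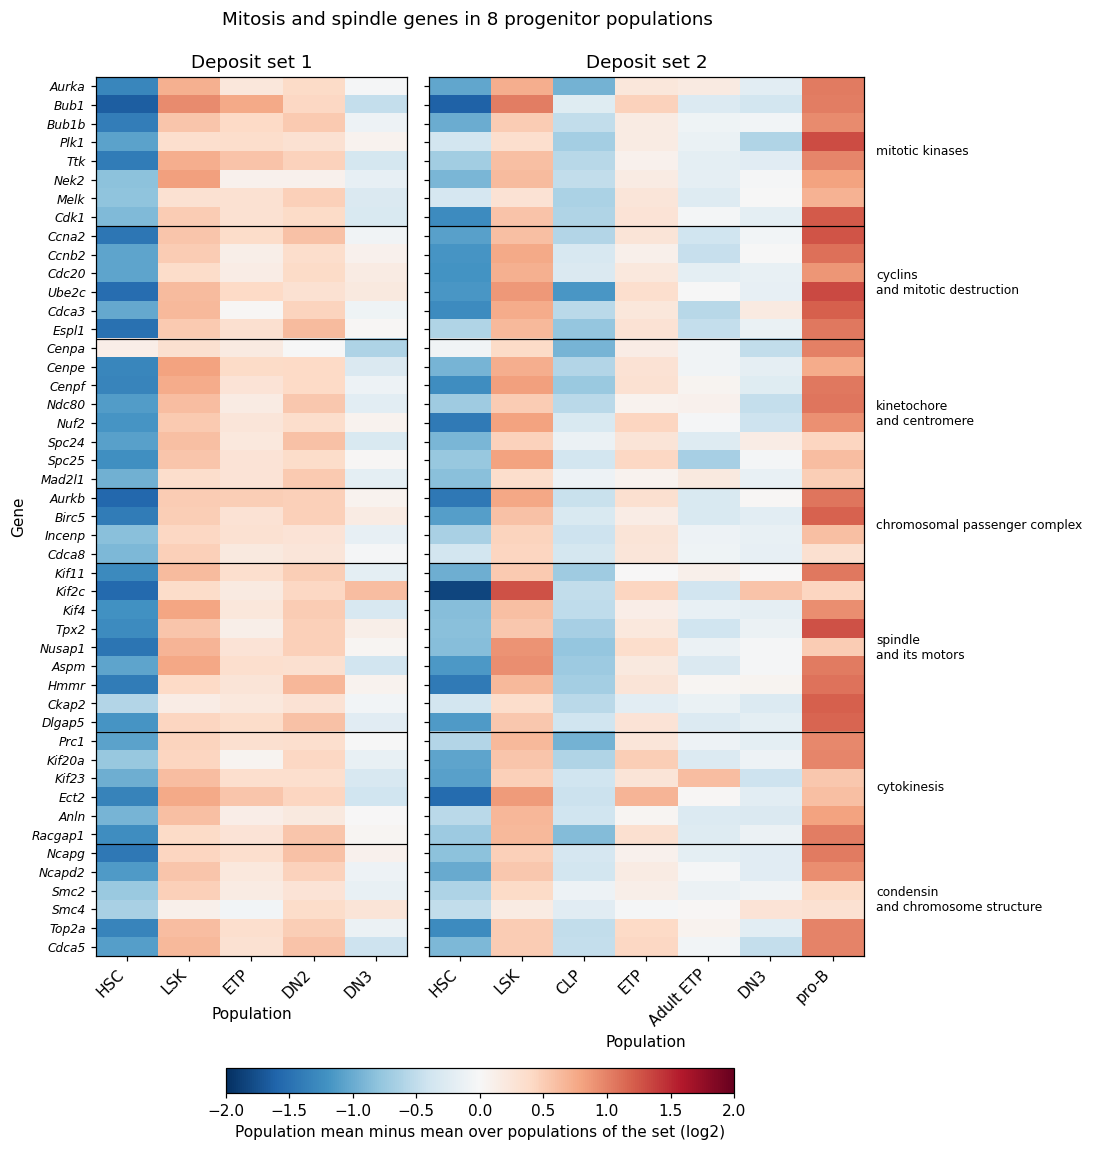
Population means of the 47 genes, each minus the gene's mean over the populations of its deposit set (log2, blue lower, red higher); rows are genes grouped by role and columns are populations. HSC are lowest for 46 genes in set 1 and 39 in set 2, LSK highest for 34 genes in set 1 and pro-B highest for 39 in set 2.

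The median level of the 47 genes separated the populations array by array. In set 1 it was 7.68 to 7.92 on HSC arrays, 8.40 to 8.93 on DN3, 8.87 to 9.36 on ETP, 9.26 to 9.41 on DN2 and 9.16 to 9.59 on LSK. Only HSC stood clear of all other populations there, and ETP, DN2 and LSK overlapped. In set 2 it was 7.92 to 8.15 on HSC arrays, 8.32 to 8.56 on CLP, 8.62 to 9.12 on DN3, 8.70 to 8.79 on adult ETP, 9.15 to 9.27 on ETP, 9.51 to 9.66 on LSK and 9.78 to 10.03 on pro-B. Adult ETP lay inside the range of DN3 and the other 6 populations of set 2 did not overlap one another. HSC were lowest for 46 of the 47 genes in set 1, the exception being Cenpa, lowest in DN3. In set 2 they were lowest for 39, and CLP were lowest for the other 8: Cenpa, Ckap2, Espl1, Melk, Plk1, Prc1, Racgap1 and Ube2c.

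The member with the widest range of population means in set 2 was followed array by array in each role group; for 5 of the 7 groups the set 2 values are given in sentences and those of set 1 are plotted. For the mitotic kinases this was Bub1, a spindle checkpoint kinase. In set 1 it read 5.49, 5.88 and 5.95 on the HSC arrays, 8.40, 8.36 and 8.36 on LSK, 8.17, 8.23 and 8.16 on ETP, 7.78, 7.89 and 7.85 on DN2 and 6.28, 7.33 and 7.25 on DN3. These 5 populations did not overlap, with LSK highest and HSC lowest. In set 2 it read 5.64, 6.83 and 5.40 on HSC, 8.66, 8.54 and 8.57 on LSK, 6.87, 7.80, 7.001 and 7.59 on CLP, 7.89, 8.32 and 7.87 on ETP, 7.50 and 7.09 on adult ETP, 7.90, 6.41 and 7.30 on DN3 and 8.81, 8.67 and 8.29 on pro-B. LSK and pro-B were high there, while the DN3 arrays spread from the HSC range to the ETP range.

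Ube2c, the E2 enzyme of the anaphase-promoting complex, represents the cyclins and mitotic destruction factors. In set 1 it read 8.43, 8.44 and 8.93 on HSC, 10.97, 10.80 and 10.51 on LSK, 10.82, 10.53 and 10.25 on ETP, 10.47, 10.41 and 10.44 on DN2 and 10.35, 10.16 and 10.47 on DN3, so that HSC stood apart and the other 4 populations lay close together. In set 2 it read 9.59, 9.44 and 9.68 on HSC, 11.52, 11.72 and 11.55 on LSK, 9.81, 9.02, 9.63 and 9.82 on CLP, 11.01, 11.16 and 11.05 on ETP, 10.75 and 10.69 on adult ETP, 11.04, 10.73 and 9.92 on DN3 and 12.12, 12.02 and 12.01 on pro-B. CLP overlapped HSC at the bottom, well below LSK and ETP.

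Nuf2, a subunit of the NDC80 complex that ties kinetochores to microtubules, read 6.97, 7.57 and 6.29 on the HSC arrays of set 2, 9.37, 8.88 and 9.25 on LSK, 7.43, 8.68, 7.93 and 8.20 on CLP, 8.59, 8.85 and 8.93 on ETP, 8.45 and 8.21 on adult ETP, 8.45, 7.59 and 7.82 on DN3 and 9.34, 9.38 and 9.12 on pro-B. Its CLP and DN3 arrays overlapped, and 1 CLP array fell in the ETP range. Aurkb, the kinase of the chromosomal passenger complex, read 7.81, 7.42 and 7.01 on HSC, 9.51, 9.55 and 9.78 on LSK, 8.26, 8.04, 8.47 and 8.86 on CLP, 9.26, 8.94 and 9.28 on ETP, 8.69 and 8.38 on adult ETP, 8.84, 8.74 and 9.03 on DN3 and 10.10, 9.86 and 9.78 on pro-B in set 2. For Aurkb HSC were lowest without overlap, and the lowest pro-B array stood level with the highest LSK array.

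Ect2, the exchange factor that starts the contractile ring, read 6.61, 5.66 and 5.99 on HSC, 8.57, 8.29 and 8.57 on LSK, 7.32, 6.74, 7.36 and 7.37 on CLP, 8.28, 8.37 and 8.26 on ETP, 7.90 and 7.39 on adult ETP, 7.57, 6.63 and 8.03 on DN3 and 8.15, 8.25 and 8.28 on pro-B in set 2. Unlike Ube2c it was not highest in pro-B, where its arrays lay within or below the ETP range and under every LSK array. Top2a read 8.81, 8.77 and 8.56 on HSC, 10.54, 10.37 and 10.55 on LSK, 9.54, 9.13, 9.42 and 9.84 on CLP, 10.35, 10.43 and 10.35 on ETP, 10.03 and 10.07 on adult ETP, 9.97, 9.56 and 9.76 on DN3 and 11.15, 11.02 and 10.74 on pro-B in set 2. Its levels ran upward from HSC through CLP, DN3, adult ETP, ETP and LSK to pro-B, with overlap between CLP and DN3 and between ETP and LSK. Kif2c, among the spindle genes, varied most between replicates, with an SD of 1.23 on HSC and 1.80 on adult ETP. It read 5.24, 5.48 and 7.47 on HSC, 8.98, 9.11 and 9.42 on LSK, 6.96, 7.64, 6.90 and 8.11 on CLP, 8.32, 8.31 and 8.32 on ETP, 8.79 and 6.24 on adult ETP, 8.32, 8.72 and 8.34 on DN3 and 8.45, 8.76 and 7.76 on pro-B.

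**Figure D2:**
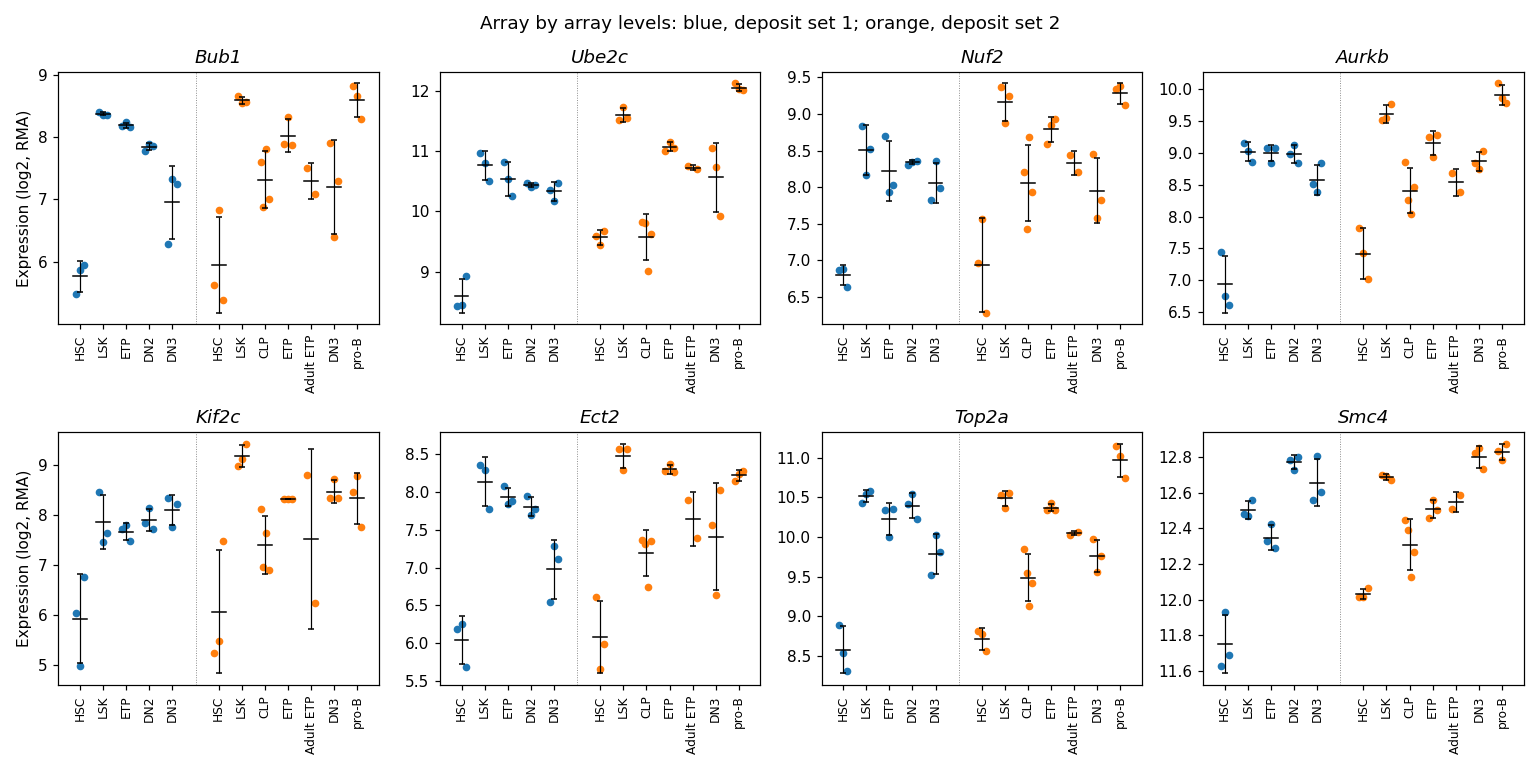
Expression (log2, RMA) of 8 genes on each array, by population and deposit set (blue set 1, orange set 2); points are arrays, black bars the mean and the SD, and the vertical axes do not start at 0. Ube2c shows CLP overlapping HSC in set 2, and Smc4, shown for contrast, is higher in DN3 than in ETP in both sets.

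The step from stem cells to thymic seeding progenitors carried the broadest rise. Of the 47 genes, 43 rose at least 2-fold from HSC to LSK and none fell, against 3.90% of all genes called higher. The median difference was 1.65 (lowest 0.31, highest 2.62), against 0.01 over all genes. LSK arrays lay above HSC arrays in both sets for 46 of the 47, against 9.36% of all genes. By the probe sets used, Bub1 rose most (2.62 ± 0.23, adjusted p = 1.85e-10, 6.14-fold), its mean going from 5.77 to 8.37 within set 1, and within set 2 from 5.95 to 8.59. The other probe set of Bub1, with a lower mean (6.42), gave 1.525. Bub1 was followed by Kif2c (2.52, against 0.94, 1.52 and 1.60 by its 3 other probe sets), Ect2 (2.25), Aurkb (2.14), Ube2c (2.09), the kinetochore protein Cenpf (2.07), Nuf2 (1.97), the spindle proteins Nusap1 (1.95) and Aspm (1.95) and the microtubule-binding Hmmr (1.93). By role, 7 of 8 mitotic kinases, 6 of 6 cyclins and destruction factors, 7 of 8 kinetochore genes, 4 of 4 passenger complex genes, 8 of 9 spindle genes, 6 of 6 cytokinesis genes and 5 of 6 condensin and chromosome structure genes were called.

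The 4 genes not called in this step were Melk (0.87, adjusted p = 0.000894), Ckap2 (0.73, adjusted p = 0.00335), Smc4 (0.70, adjusted p = 3.3e-09) and Cenpa (0.31, adjusted p = 0.467). The first 3 passed the p threshold and missed 2-fold. The levels of Cenpa overlapped between HSC and LSK, at 7.84 to 8.93 and 8.36 to 8.78 in set 1, and in set 2 at 7.53 to 9.31 and 8.50 to 8.81. Of its 2 other probe sets, both with lower means, 1 gave a difference of 1.25 in the same comparison and the other 0.07. For no member did the HSC to LSK difference differ between the deposit sets at adjusted p under 0.05 (lowest adjusted p 0.328, for Cdca8; 4 members at unadjusted p under 0.05). Without the 6 HSC, LSK and CLP arrays highest in late granulocyte markers, HSC replicate 5 among them, 41 members were called.

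CLP, the second candidate for seeding the thymus, had lower levels than LSK. In set 2, which alone holds CLP, 26 of the 47 genes fell at least 2-fold from LSK to CLP and none rose, against 0.341% of all genes called lower: of the 62 genes called lower on the whole array, 41.9% were members. All 47 differences were below 0, with a median of -1.12 (from -2.03 to -0.38) against 0.03 over all genes. The 4 CLP arrays lay below the 3 LSK arrays without overlap for all 47 genes, against 4.85% of all genes. Ube2c fell most (by 2.03 ± 0.20, adjusted p = 4.27e-07, 4.07-fold), from 11.60 ± 0.11 in LSK (SD, n = 3) to 9.57 ± 0.38 in CLP (SD, n = 4). The next among the called genes were Aurka, the kinase of centrosome maturation (-1.68), Nusap1 (-1.68), Aspm (-1.65), Prc1, which bundles the central spindle (-1.60), Cenpf (-1.56), Racgap1, the partner of Ect2 at the midzone (-1.502), Espl1, the separase that cleaves cohesin (-1.42), Hmmr (-1.32) and Cenpe, a kinetochore motor (-1.32).

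The count differed between roles, which was not tested. A fall was called for 5 of 6 cyclins and destruction factors, 6 of 9 spindle genes, 4 of 6 cytokinesis genes, 5 of 8 kinetochore genes and 4 of 8 kinases, but for 1 of 4 passenger complex genes and 1 of 6 condensin and chromosome structure genes. All 4 passenger complex genes had an adjusted p under 0.05, as did 3 of the 6 condensin and chromosome structure genes. For Cdca8 the probe set used gave -0.785 and its others -1.21 and -1.07. For Incenp the one used gave -0.87 and its others -1.32, -1.14, -0.49 and -0.14. A further 6 members had differences past 2-fold that missed the p threshold: Kif2c (-1.77, adjusted p = 0.112), Cenpa (-1.31, adjusted p = 0.136), Ttk, a checkpoint kinase (-1.15, adjusted p = 0.0835), Kif20a (-1.14, adjusted p = 0.0588), Plk1 (-1.02, adjusted p = 0.057) and Cdc20, the activator of the anaphase-promoting complex (-1.001, adjusted p = 0.0775). The smallest differences were those of Smc4 (-0.38, adjusted p = 0.0592), Mad2l1, a spindle checkpoint protein (-0.46, adjusted p = 0.299), Smc2, the partner of Smc4 in condensin (-0.49, adjusted p = 0.289), and Spc24, a subunit of the NDC80 complex (-0.58, adjusted p = 0.514). Late granulocyte markers were higher in CLP than in LSK, with all 7 measured markers above 0 and a median difference of 1.28, though none was called. B lineage markers moved with the mitotic genes: all 7 were below 0 with an unadjusted p under 0.05, 1 was called lower, the median was -1.02, and the marker means did not overlap between LSK and CLP. All 7 stem cell markers were above 0, with a median of 0.67 and none called. The part of these markers in the fall was not tested. Without the 6 arrays highest in granulocyte markers 16 members were called lower and the median was -1.07. With the spread taken from the CLP and LSK arrays alone 12 were called, at the same median, and when tested against 1.5-fold 2 were.

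**Figure D3:**
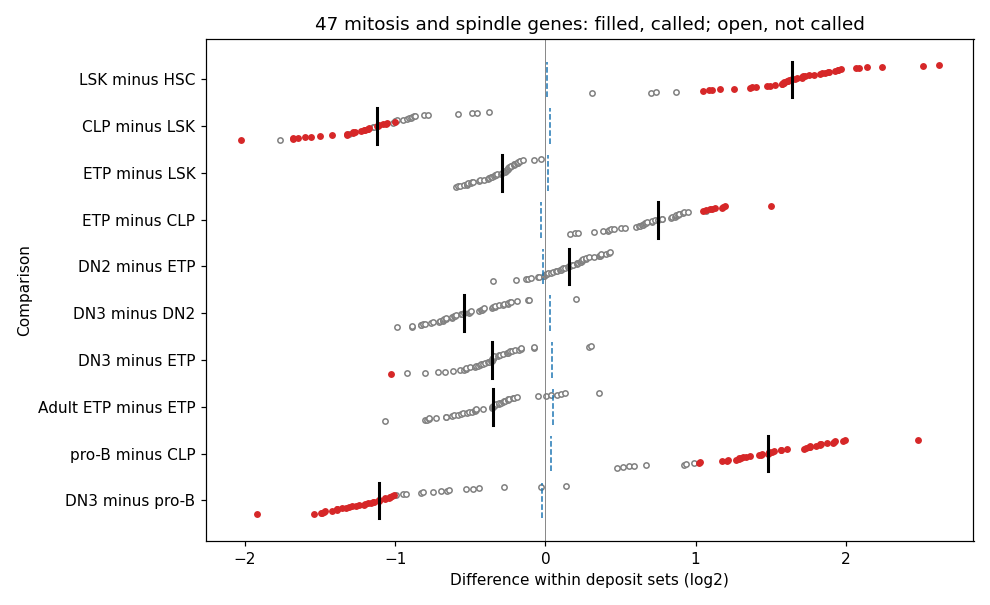
Log2 differences of the 47 genes within deposit sets in the 10 comparisons; each circle is a gene (filled, called; open, not called), the black bar the median of the 47 and the dashed blue bar the median of all genes. The 47 genes lie above 0 from HSC to LSK, below 0 from LSK to CLP and above 0 from CLP to pro-B.

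Genes outside the 47 were also compared between LSK and CLP. Among 72 other mitotic genes, 15 fell from LSK to CLP and none rose (median -0.63). The largest falls were those of Cdc25c, a phosphatase that activates CDK1 (-1.58 ± 0.37, adjusted p = 0.044), Cep55, an abscission protein (-1.49), and Kpna2, a nuclear import factor (-1.35). Among 44 DNA replication genes none was called in either direction (median -0.14, from -0.70 to 0.45), and among 24 regulators of mitotic transcription, E2F and MuvB components included, none was called either (median -0.25). The mean of the replication genes was 9.29 to 9.41 on CLP arrays and 9.37 to 9.52 on LSK arrays of set 2, which overlapped, whereas the mean of the 47 genes was 8.44 to 8.71 and 9.62 to 9.67, which did not. Whether the lists differ was not tested. From HSC to LSK 3.90% of all genes were called higher. Of the 72 other mitotic genes 35 rose there, as did 13 of the 44 replication genes, and none fell. They were led by Kpna2 (2.23) and by Rrm2, the ribonucleotide reductase subunit (1.70). Of the regulators 4 rose, with E2f8 (1.43), E2f2 (1.35) and Lin9 (1.20) the largest.

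**Figure D4:**
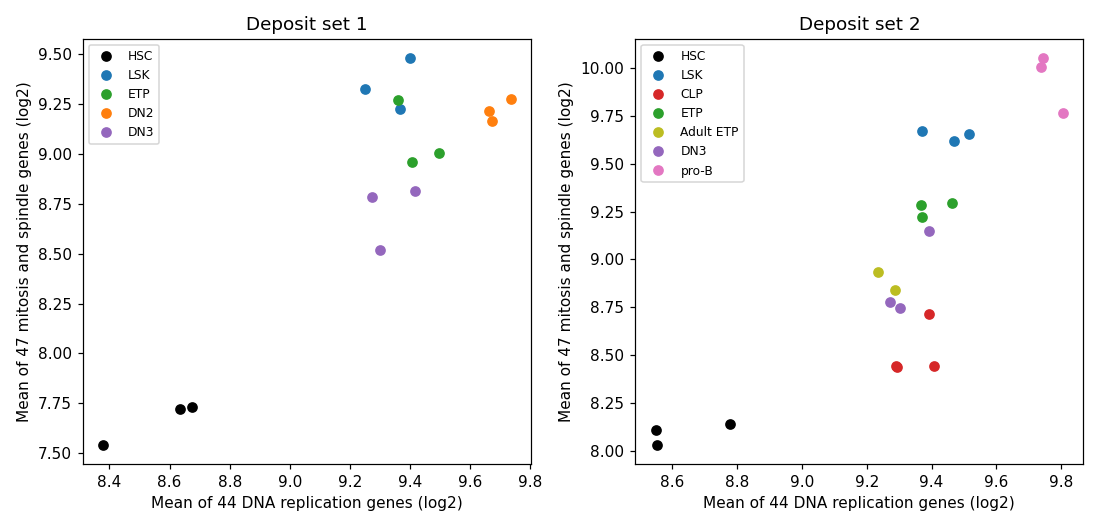
Mean level of the 47 mitosis and spindle genes against the mean of 44 DNA replication genes on each array (log2), in each deposit set; points are arrays coloured by population, and the axes do not start at 0. In set 2 the CLP arrays lie at 9.29 to 9.41 for replication genes, overlapping LSK, and at 8.44 to 8.71 for mitosis genes, below LSK at 9.62 to 9.67.

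The mitotic genes differed little between LSK and ETP. From LSK to ETP none of the 47 genes was called, against 1.74% of all genes called in either direction. All 47 differences were below 0 (46.2% of all genes were), with a median of -0.29 and the lowest at -0.60, and 19 had an unadjusted p under 0.05 (11.7% of all genes). The smallest p-values were those of Nek2, a centrosome kinase (-0.60 ± 0.13, adjusted p = 0.00341), Anln, the anillin of the contractile ring (-0.54 ± 0.15, adjusted p = 0.0377), and Ndc80 (-0.44 ± 0.13, adjusted p = 0.0433), the only 3 with an adjusted p under 0.05 and all below 2-fold. One regulator fell: Cdkn1a, which encodes the p21 inhibitor of cyclin-dependent kinases, was lower in ETP than in LSK by 3.20 ± 0.32 (adjusted p = 3.58e-08).

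From CLP to ETP, a comparison that shares the CLP arrays with the one above, 9 of the 47 genes rose and none fell, against 0.731% of all genes called higher. These were Ube2c (1.503 ± 0.20, adjusted p = 1.06e-05), Prc1 (1.19), Racgap1 (1.18), Aurka (1.18), Nusap1 (1.13), Ect2 (1.11), Kif20a, a cytokinesis motor (1.10), Espl1 (1.07) and Cenpf (1.05). Cytokinesis genes made up 4 of these 9, out of 6 measured, while no passenger complex gene and no condensin and chromosome structure gene was called. An adjusted p under 0.05 was still reached by 3 of 4 passenger complex genes and 2 of 6 condensin and chromosome structure genes. All 47 differences were above 0, with a median of 0.75 against -0.03 over all genes. An adjusted p under 0.05 was reached by 24, for which no share of all genes is given. In the 3 other lists Kpna2 (1.43) was the 1 gene that rose, and Cdkn1a the 1 that fell (-2.76). The count was 14 without CLP replicate 4, 5 without ETP replicate 5 and 5 without the arrays highest in granulocyte markers. It was 5 with the mean of probe sets or with the spread of these populations alone, and 1 when tested against 1.5-fold. CLP replicate 4 is the array titled CLP without a number, and its number was assigned for this report. Its mean of the 47 genes was 8.71, against 8.44 to 8.445 on the other CLP arrays. B lineage markers also differed between CLP and ETP, with 6 of 7 lower in ETP.

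Within the thymus the changes were small. From ETP to DN2, measured in set 1, none of the 47 genes was called, against 3.04% of all genes; 38 differences were above 0 (46.5% of all genes), the median was 0.16 and 2 had an unadjusted p under 0.05 (12.2% of all genes). The smallest p-values were those of Smc4 (0.42 ± 0.10, adjusted p = 0.00739), Ndc80 (0.37, adjusted p = 0.393) and Cdca3, a trigger of mitotic entry (0.43, adjusted p = 0.516). Cdkn1a (2.65 ± 0.46, adjusted p = 0.000202) and E2f2 (1.31 ± 0.30, adjusted p = 0.00615) rose at this step.

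From DN2 to DN3, again in set 1, none was called at 2-fold, against 2.69% of all genes, but 46 of the 47 differences were below 0 (45.2% of all genes), with a median of -0.54 against 0.03 over all genes. An unadjusted p under 0.05 was reached by 26 (18.2% of all genes) and an adjusted one by 11, for which no share of all genes is given. DN3 arrays lay below DN2 arrays without overlap for 29 of the 47, against 11.5% of all genes. The smallest p-values were those of Dlgap5, a spindle assembly protein (-0.80 ± 0.16, adjusted p = 0.00189), Mad2l1 (-0.71 ± 0.15, adjusted p = 0.00343) and Cdca5, the cohesin protector sororin (-0.99 ± 0.21, adjusted p = 0.00352), the last just under 2-fold. Kif2c was the exception (0.20). The kinetochore genes Dsn1 (-1.27) and Cenph (-1.16) among the other mitotic genes, and Pole2 (-1.10) and Mcm10 (-1.08) among the replication genes, fell, as did the regulator Lin54, a MuvB component (-1.56 ± 0.42, adjusted p = 0.0259). The count of members called was 1 without DN2 replicate 1 or 3, 3 without DN3 replicate 2 and 2 without DN3 replicate 3.

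Over both sets, from ETP to DN3, 45 of the 47 differences were below 0 (41.9% of all genes), with a median of -0.36 against 0.045 over all genes. An unadjusted p under 0.05 was reached by 32 (27.6% of all genes). Only Bub1 was called lower (-1.03 ± 0.23, adjusted p = 0.00117), against 3.74% of all genes. The other probe set of Bub1 gave -0.6, which is under 2-fold. The call of Bub1 ended without DN3 replicate 1 or 5 or ETP replicate 5, each of which left 0 members called, while 2 were called without DN3 replicate 2 or 6. Ect2 (-0.92), Cdca5 (-0.80) and Kif23, a midzone motor (-0.67), came next among those with an adjusted p under 0.05. These were 13 in all, for which no share of all genes is given. Smc4 went the other way (0.30 ± 0.07, adjusted p = 0.00217), under 2-fold. It read 12.33, 12.42 and 12.29 on ETP and 12.56, 12.81 and 12.60 on DN3 arrays of set 1, and 12.46, 12.56 and 12.51 on ETP and 12.82, 12.85 and 12.73 on DN3 arrays of set 2, without overlap in either. Cdkn1a (2.64) and E2f2 (1.60) rose and E2f7, a repressor of cell cycle genes, fell (-1.06).

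Adult ETP, 2 arrays, were compared with the ETP of set 2. None of the 47 was called and none had an adjusted p under 0.05, against 0.115% of all genes called in either direction; 12 had an unadjusted p under 0.05 (12.3% of all genes). Of the differences 41 were below 0 (43.4% of all genes), with a median of -0.35. The smallest p-values were those of Spc25, a subunit of the NDC80 complex (-1.07 ± 0.25, adjusted p = 0.0842), Espl1 (-0.77 ± 0.23, adjusted p = 0.168) and Dlgap5 (-0.55 ± 0.18, adjusted p = 0.217). With 2 arrays these values do not show that the 2 kinds of ETP are alike.

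Pro-B cells, measured in set 2, had the highest level of 39 of the 47 genes among its 7 populations, which do not include DN2. From CLP to pro-B, again with the same CLP arrays, 39 of the 47 rose and none fell, against 3.34% of all genes called higher, with a median of 1.48 (from 0.48 to 2.48). Pro-B arrays lay above CLP arrays without overlap for 46, against 13.6% of all genes. Ube2c rose most (2.48 ± 0.20, adjusted p = 1.84e-10, 5.59-fold), followed by Plk1, the polo kinase of mitotic entry (1.99), Aurka (1.98), Cenpa (1.93, but -0.92 by the most variable of its probe sets), Tpx2, the activator of Aurka on the spindle (1.93), Prc1 (1.92), Racgap1 (1.88), Ccna2, cyclin A2 (1.83), Cdk1 (1.83) and Espl1 (1.83). Of the probe sets of Cenpa, the one at -0.92 had the lowest mean (5.17), and the remaining one gave 1.79. All 8 kinases and all 6 cyclins and destruction factors were called. The 8 not called were Spc25 (0.99), Kif23 (0.94), Kif2c (0.92), Cdca8 (0.67), Mad2l1 (0.59), Spc24 (0.56), Smc4 (0.52) and Smc2 (0.48). Other probe sets gave 2.06 and 1.11 for Cdca8, and 1.22, 1.59 and 1.745 for Kif2c. They gave 1.28 and 0.73 for Kif23, and 1.21 and -0.05 for Smc4. For Smc2 they gave 1.04, 0.83, 0.59 and 0.335, and for Spc25 0.355. Among the regulators, E2f2 (2.95 ± 0.28, adjusted p = 7.94e-09), E2f7 (2.13) and Foxm1, an activator of mitotic genes (1.08), rose. Of the replication genes 6 rose, led by Ccne1 (1.89), and 2 fell, Mcm4 among them (-1.96 ± 0.31, adjusted p = 3.2e-05).

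DN3 and pro-B cells are at comparable stages, each rearranging a first antigen receptor chain, and differed in mitotic gene level. In set 2, 32 of the 47 were lower in DN3 than in pro-B and none higher, against 5.09% of all genes called lower, with a median of -1.11 against -0.02 over all genes. Plk1 differed most (-1.92 ± 0.26, adjusted p = 2.81e-06): it read 7.81, 7.07 and 6.97 on DN3 arrays, 9.43, 9.63 and 8.54 on pro-B arrays and 7.13, 7.31, 7.23 and 7.15 on CLP arrays, so that DN3 and CLP overlapped below pro-B. Ndc80 (-1.54), Cenpa (-1.49, but 0.61 by the most variable of its probe sets), Ube2c (-1.49), Cdca5 (-1.48), Ckap2 (-1.47), Cdk1 (-1.42), Tpx2 (-1.39), Bub1 (-1.39) and Birc5, the survivin of the passenger complex (-1.39), followed. The remaining probe set of Cenpa gave -1.89. Smc4 (-0.03, adjusted p = 0.891), Kif2c (0.14, adjusted p = 0.892) and Spc24 (-0.28, adjusted p = 0.513) showed the smallest differences. E2f7 (-2.71), E2f2 (-1.28) and Foxm1 (-1.16) were also lower in DN3. Pro-B arrays had a higher mean over all genes (6.59 to 6.65) than the other set 2 arrays (6.52 to 6.57), and carried late granulocyte markers at 6.53 to 7.57, against 4.88 to 5.22 on DN3. With quantile normalization within sets 18 were called, with the mean of each gene's probe sets 21 and when tested against 1.5-fold 11. The part of these array measures in the result was not tested.

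Other probe sets of the same genes mostly moved the same way. Of 61 further probe sets of 32 members, the difference had the sign of the one used for 59 from HSC to LSK, 56 from LSK to CLP, 55 from CLP to pro-B and 51 between DN3 and pro-B. The exceptions of Kif2c rested on its probe set. The one used carries a suffix that marks probes which can also match other transcripts, and it gave 0.14 between DN3 and pro-B and 0.20 from DN2 to DN3. The 3 others gave -1.04, -1.33 and -0.95 in the first comparison and -0.50, -0.67 and -1.35 in the second, as most of the 47 genes did. For Smc4, by contrast, both other probe sets also gave values above 0 from ETP to DN3 (0.37 and 0.54, against 0.30).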

How the data were processed

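The authors deposited log2 values; the submitters' processing notes name RMA, a method of background correction, between-array normalization and probe summary. Its version is not given in the sources used here, and the log base is read from the values. RNA was extracted with Trizol, amplified with a Nugen WT-Ovation Pico kit and biotin-labelled, per the labels' protocols. Array medians of 5.12 to 5.22 (set 1, recognised by its tissue labels) and 5.84 to 5.95 (set 2) show separate normalization.

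Of 45101 probe sets 64 are controls, 34945 name 1 gene, 932 several and 9160 none; the best-expressed probe set stood for each of 18193 genes. limma 3.58.1 (lmFit and eBayes, R 4.3.3) fitted 12 population-by-set means over 36 arrays, leaving 24 residual degrees of freedom, and was tested on simulated data. The number of arrays limits the precision. The members and lists were chosen with earlier results of these data known. All 47 members could be named; those given array by array had the widest set 2 range in their role or the largest called difference, and other lists gave up to 3 genes a comparison. Alternatives changed the normalization, probe set choice, gene filter, threshold, set term and arrays used. Same-numbered replicates did not deviate together (median correlation -0.003 in set 1 and -0.01 in set 2; above 0.1 in 1 of 30 and 2 of 25 pairs), so the numbers do not pair the arrays. Promoters came from RefSeq.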

Additional observations from a re-analysis of the deposited data

Results flagged for a closer look

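CLP in set 2 was the single population of 4 arrays, and each member and the member mean were tested there for an array far from the others, 48 tests in all. In 2 of them 1 array stood apart, which is no more than the rate of about 1 in 20 that chance gives. Both concern CLP replicate 2, which also carried late granulocyte markers at a mean of 7.07. CLP replicate 1 had a higher mean of these markers (8.31) and stood apart in none of the tests. Ect2 read 6.74 on CLP replicate 2, below the 7.32 to 7.37 of the other 3. Ncapd2, a condensin subunit, read 9.68 on it, above the 8.87 to 9.01 of the others, so the 2 genes deviate in opposite directions.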

How the results depend on the processing

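The rise from HSC to LSK (43 genes called) and that from CLP to pro-B (39) stayed within 1.5 times their counts under every alternative tried. The fall in CLP, the rise from CLP to ETP and the lower level in DN3 than in pro-B kept their direction with other counts. The alternative without late granulocyte arrays kept all pro-B arrays, although their late granulocyte marker means were 6.53 to 7.57. From LSK to CLP, 26 were called, but 12 with the spread from those 2 populations alone, 2 when tested against 1.5-fold, and 16 without the late granulocyte arrays (chosen after seeing the data). From CLP to ETP, 9 became 5 with the mean of probe sets, 5 with 2 populations alone, 1 against 1.5-fold, 5 without the late granulocyte arrays and 24 with no fold threshold. DN3 against pro-B, 32, became 21 with the mean of probe sets, 18 with quantile normalization within sets and 11 against 1.5-fold. From ETP to DN3, 1 became 0 with array weights, the mean of probe sets, quantile normalization, set 2 alone or 1.5-fold, 2 with the most variable probe set and 13 with no fold threshold. From DN2 to DN3, 0 became 1 with an additive set term, 2 with the mean of probe sets or the most variable probe set and 11 with no fold threshold. Adult ETP against ETP gave 1 with an additive set term or array weights, and with no fold threshold ETP to DN2 gave 1 and LSK to ETP 3. Leaving out 1 array at a time gave 42 to 44 (HSC to LSK), 19 to 27 (LSK to CLP), 5 to 14 (CLP to ETP), 37 to 41 (CLP to pro-B), 26 to 34 (DN3 against pro-B), 0 to 3 (DN2 to DN3), 0 to 2 (ETP to DN3) and 0 to 0 elsewhere. With the most variable probe set Cenpa reversed, to 0.61 between DN3 and pro-B and -0.92 from CLP to pro-B. Its remaining probe set gave -1.89 and 1.79. With the replicate number as a block the counts were 43 (HSC to LSK), 41 (CLP to pro-B), 1 (ETP to DN3) and 0 (LSK to ETP, ETP to DN2 and DN2 to DN3). No paired analysis was possible for the other 4 comparisons because their populations share fewer than 2 replicate numbers within a set. The cause of these changes was not tested. Of 3293 values for single genes under alternatives, 3006 kept their direction and side of the threshold, 271 lost the call, 14 gained it and 2 reversed. Populations of 2 to 4 arrays a set limit what can be called.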
